A study of Lotus japonicus with 18 samples.

Results

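GDSL esterases and lipases are a large family of plant hydrolases named after a Gly-Asp-Ser-Leu motif that carries the active-site serine. In shoots of the legume Lotus japonicus, 110 of the 33994 rows of the deposited gene table belonged to this family, and 67 of the 110 were expressed highly enough to be tested. Members were the rows whose description carried the Pfam domain of GDSL-like lipases (PF00657) or a Swiss-Prot match named GDSL esterase/lipase. The domain was present in 90 rows and the name in 106, and 86 rows had both. Of the other rows, 20 had the name alone. The remaining 4 had the domain alone, and their Swiss-Prot match was the esterase of the rubber tree Hevea brasiliensis, known as a latex allergen. The names are matches by similarity, mostly to Arabidopsis loci, and do not establish what each Lotus protein does.

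Enzymes of this family cut or transfer ester bonds of many lipids. In Arabidopsis and tomato, some GDSL proteins act as cutin synthases, which join hydroxy fatty acid esters into the polymer of the shoot surface, and others make or break down suberin in roots. Further Arabidopsis members lie in the pollen coat (the EXL extracellular lipases) or act in defence against microbes (the GLIP group). LTL1 was described in Arabidopsis as a lithium tolerant lipase, and CPRD49 takes its name from a cowpea gene responsive to dehydration.

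Polyadenylated RNA was sequenced from 18 shoot libraries, 3 for each of 6 groups. Plants were wild type (WT) or from 1 of 2 mutant lines of LjMYB36, a MYB transcription factor gene whose Arabidopsis relative directs Casparian strip formation in the root endodermis. The lines, labelled Lmyb36-1 and Lmyb36-2, are called line 1 and line 2 here, and the labels do not state how either allele was made. All plants grew in Hornum nutrient solution. Controls of WT, line 1 and line 2 received no added NaCl, and salt plants of the same genotypes were given NaCl in steps of 50 mM, 1 step every 4 days, and had spent about 2 days at 100 mM. Shoots were taken at day 34 of growth, 4 hours into the light period. Replicates are labelled biological, and nothing says which plants or pools each came from, so p-values measure only the spread between these libraries.

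Values are FPKM, reads scaled to gene length and to library depth, as the authors deposited them. The files name no genome build, and coordinates are those of the deposited table. A library held between 42125949 and 101713201 recovered reads, of which 0.281% to 0.404% fell in GDSL genes. The 20 rows that mark green shoot tissue summed to between 46735 and 70968 FPKM in every library. The 4 leghemoglobin rows summed to at most 0.257 FPKM, the 5 Casparian strip membrane protein rows to at most 0.906 (1 of them at 0 in every library) and the 6 pollen and anther rows to at most 2.65. The 15 seed rows (legumin, vicilin and oleosin) were higher, with sums between 8.32 and 14.6 FPKM, and 3 of them were expressed highly enough to be tested. Of 5 rows named MYB36, none was below 0.5 times its WT level in both lines, so the table did not check the mutation, and which row is LjMYB36 is not given in the labels. Deviations from the group means divided the libraries along their main axis (30.8% of the variance) into 8 (upper set) and 10 (lower set), with 1 or 2 of each in every group. Results that change in the lower set alone, a fit with fewer libraries, are given beside the result. Each fitted change below is a difference in log2(FPKM + 0.5) with its standard error (SE) from limma over all 18 libraries. It is tested two-sided with Benjamini-Hochberg adjustment over the 20433 rows that reached 1 FPKM in at least 3 libraries, and called at an adjusted p under 0.05. That scale understates the change of low genes.

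A few genes carried most of the family's expression in the shoot. Averaged over the 18 libraries, 4 members had at least 100 FPKM, 19 had 10 to 100, 36 had 1 to 10, 45 were lower, and 6 were at 0 in every library. The highest was LotjaGi1g1v0787100 on chromosome 1 (positions 135980325 to 135987878, plus strand), whose closest named match is At5g33370, the cutin synthase-like CUS2 of Arabidopsis. Its level was 241 ± 9.18 FPKM in WT control, 263 ± 19.5 in WT salt, 245 ± 9.64 and 235 ± 23.9 in line 1 control and salt, and 207 ± 7.50 and 232 ± 18.2 in line 2 (mean ± SD, n = 3 each). It was called in none of the 10 comparisons.

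The next was LotjaGi1g1v0068450, matched to At2g04570, with group means between 175 and 235 FPKM. It was followed by LotjaGi1g1v0430700, matched to EXL3, with group means between 157 and 214. The latter overlaps a gene on the opposite strand, LotjaGi1g1v0430600, and, with the strand setting of the counting not given in the sources used here, the pair may share reads. The fourth, LotjaGi1g1v0441400, is matched to CPRD49 and is the salt gene described further on. Its group means ran from 86.6 to 431 FPKM, and in WT salt it was the highest member. These 4 genes held 53.9% of the summed FPKM of all members. LotjaGi4g1v0224800, matched to At3g48460, and LotjaGi1g1v0189000, matched to At1g29660, followed at 56.4 and 49.6 FPKM, and neither was called in any comparison. The order of the first 4 is not fixed, because their ranges over libraries overlap. The median tested member had a mean of 5.94 FPKM, beside 6.36 over all tested rows.

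**Figure D1:**
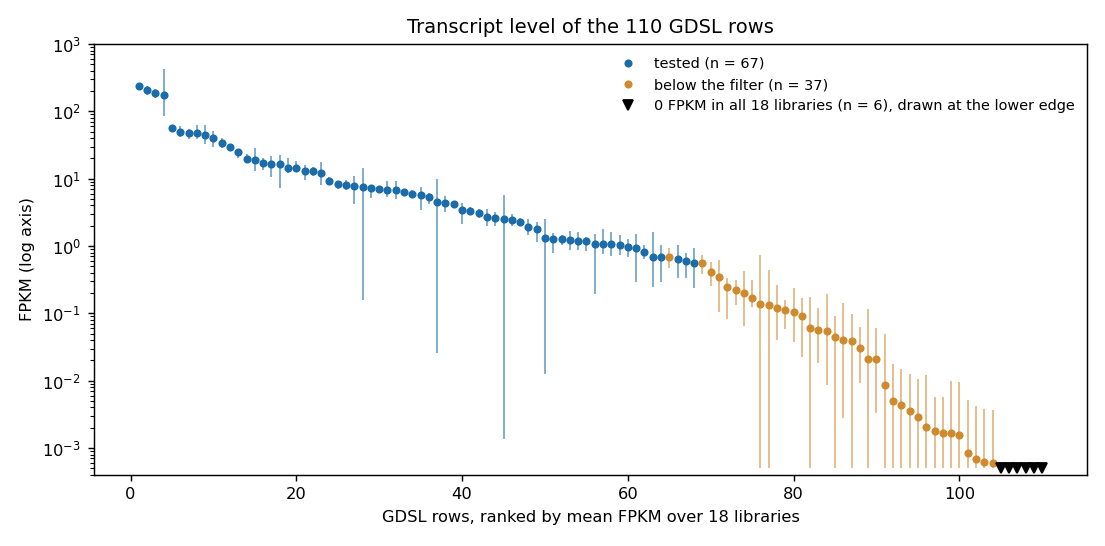
FPKM (log axis) of the 110 GDSL rows, ranked by their mean over 18 libraries (points), with the range of the 6 group means as vertical lines and rows at 0 drawn at the lower edge. The 4 highest genes lie above 100 FPKM, while 36 of the 110 members average between 1 and 10.

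At1g29670 was the most frequent name, with 14 rows, of which 8 were tested, followed by At5g03610 with 8 rows and At5g33370 and EXL3 with 7 each. Members lay on all 6 chromosomes, 36 of them on chromosome 1 and 26 on chromosome 6. With gaps of at most 50 kb between neighbours, 64 members stood in 24 runs, and 8 runs held at least 3 members. Genes in such runs can be near-identical copies, and reads shared between copies may be split among them.

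The clearest difference between genotypes was in the genes named after At1g29670. Without salt, 6 of the 8 tested rows of that name were higher in line 1 than in WT, and 6 of 8 were higher in line 2, with no row lower in either comparison. Over all tested rows, 7.37% were higher in line 1 and 7.22% in line 2. The group was singled out after its values had been seen, and both comparisons use the same WT libraries. It included 4 genes that were below 1 FPKM in every WT library and reached between 1.63 and 16.4 FPKM in the control libraries of the lines. These 4 passed the expression filter only through the lines, so their differing is partly set by the filter, and their values are given as levels first.

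LotjaGi3g1v0397700 (chromosome 3, 79922395 to 79924699, plus strand) was at 0.176, 0.118 and 0.111 FPKM in WT control and at 0.0761, 0 and 0 in WT salt. It stood at 9.22, 12 and 8.25 FPKM in line 1 control and at 10.7, 9.05 and 9.28 in line 2 control. With salt it stood at 3.82, 5.37 and 4.77 FPKM in line 1 and at 2.86, 2.68 and 2.41 in line 2. Every line library lay above every WT library, in which the gene had 55 recovered reads in all, between 0 and 25 per library. Without salt the difference from WT was 4.01 (SE 0.15, adjusted p = 5.20e-11) in line 1 and 4.00 (adjusted p = 8.00e-11) in line 2 by limma. With salt it was 3.29 (adjusted p = 4.78e-10) and 2.59 (adjusted p = 3.81e-09) by limma.

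Its neighbour LotjaGi3g1v0397600 (79887706 to 79904245, plus strand) had between 0 and 7 reads per WT library and at most 0.0340 FPKM there. It was at 4.13, 7.65 and 5.18 FPKM in line 1 control and at 7.41, 4.12 and 4.71 in line 2 control. With salt it was at 2.50, 2.78 and 1.99 FPKM in line 1 and at 2.54, 1.01 and 1.69 in line 2. The lowest line library thus lay far above the highest WT library. Differences from WT by limma were 3.53 (SE 0.25, adjusted p = 1.16e-07) and 3.47 (adjusted p = 1.06e-07) without salt, and 2.53 (adjusted p = 1.83e-06) and 2.11 (adjusted p = 1.14e-05) with salt, for line 1 and line 2 in that order.

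LotjaGi6g1v0315000 (chromosome 6, 63307612 to 63310312, plus strand) showed the highest levels of these genes in the lines. WT control libraries had 0, 0.848 and 0.762 FPKM and WT salt libraries 0.127, 0 and 0.349. Recovered reads ranged from 0 to 113 per WT library, so the gene was detected in some of them. Line 1 had 6.90, 12.9 and 11.3 FPKM in control and 4.88, 11.9 and 7.65 in salt, and line 2 had 11.1, 16.4 and 15.8 in control and 7.84, 12.1 and 12.3 in salt. Line and WT libraries did not overlap. The differences were 3.48 (SE 0.37, adjusted p = 7.34e-06), 3.96 (adjusted p = 1.42e-06), 3.66 (adjusted p = 1.85e-06) and 4.10 (adjusted p = 4.34e-07) by limma, for line 1 and line 2 without salt and then with salt. LotjaGi1g1v0298900 (chromosome 1, 72284495 to 72286609, minus strand) reached at most 0.103 FPKM in WT. It was at 2.32, 2.45 and 2.81 FPKM in line 1 control and at 3.10, 1.63 and 2.33 in line 2 control, a difference from WT of 2.49 (SE 0.21, adjusted p = 6.80e-07) and 2.38 (adjusted p = 7.75e-07) by limma.

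The other 2 called genes of this name were above 1 FPKM in every WT library and were higher in the lines by a smaller amount. LotjaGi3g1v0397500 (chromosome 3, 79879059 to 79883558, minus strand) was at 4.92, 5.80 and 4.73 FPKM in WT control, at 8.79, 11.6 and 10.4 in line 1 control and at 11.5, 10.1 and 11.6 in line 2 control. No line library overlapped a WT library, with differences of 0.93 (SE 0.12, adjusted p = 7.90e-05) and 1.03 (adjusted p = 2.28e-05) by limma. LotjaGi1g1v0189300 (chromosome 1, 37142989 to 37148221, minus strand) was at 11.1, 9.29 and 14.5 FPKM in WT control, 21.1, 19.9 and 25.7 in line 1 control and 19.3, 26.5 and 17.8 in line 2 control. Its differences were 0.92 (SE 0.17, adjusted p = 0.0021) and 0.84 (adjusted p = 0.0040) by limma. In the lower library set alone, where line 1 control has 1 library, the line 1 differences of both genes were 0.80 and 0.71 and were not called (adjusted p = 0.0777 and 0.188 by limma). All other calls of these 6 genes between line and WT held there.

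**Figure D2:**
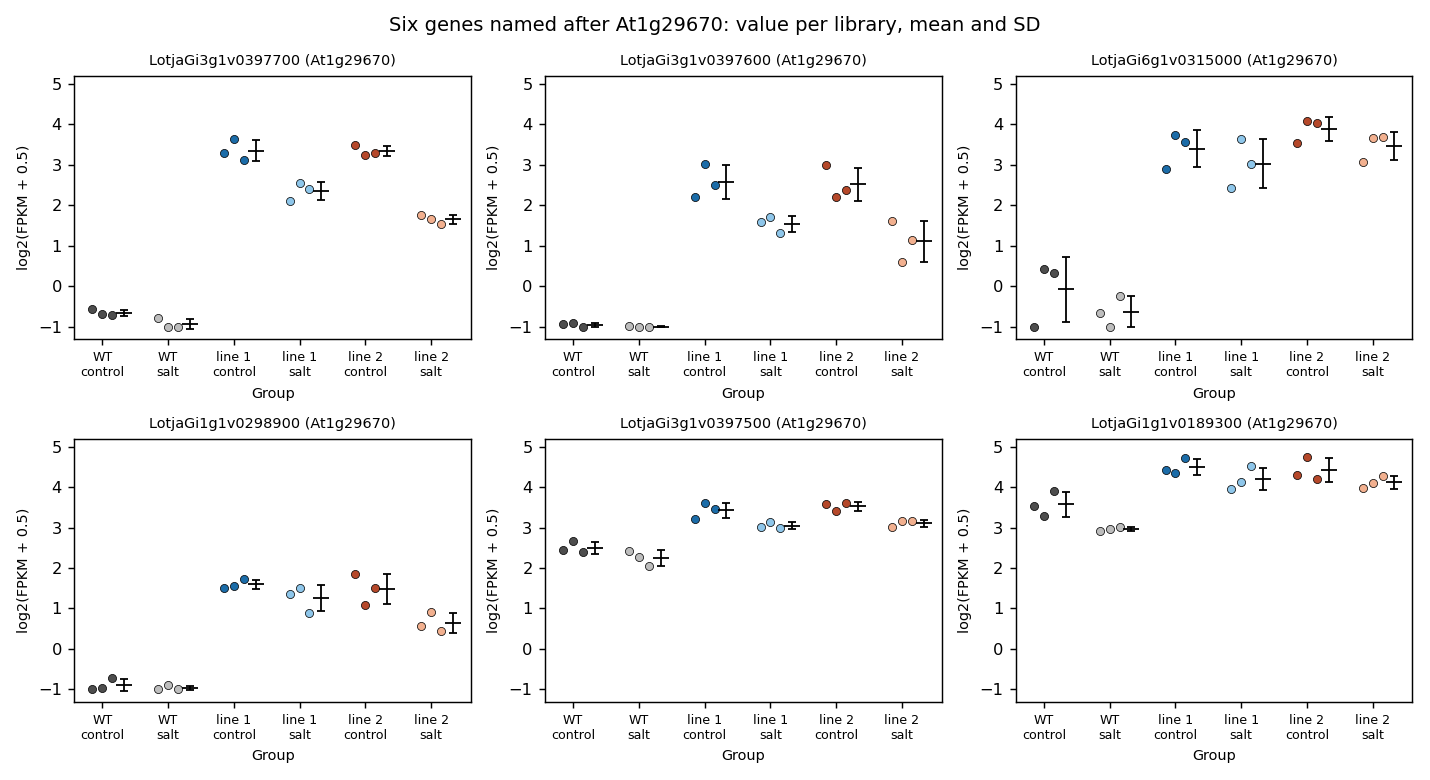
The 6 called genes named after At1g29670 on the log2(FPKM + 0.5) scale, 1 point per library, with the mean and SD of each group beside it. In 4 panels the WT points lie low, where FPKM is below 1, and LotjaGi3g1v0397700 reaches 12 FPKM in line 1 control.

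Of these 6 genes, 3 stand in 1 run on chromosome 3. That run of 5 members spans LotjaGi3g1v0397500 to LotjaGi3g1v0397800 and includes an assembled transcript between LotjaGi3g1v0397600 and LotjaGi3g1v0397700 (79906432 to 79918261, minus strand). This transcript had no read in any of the 6 WT libraries, where 3 reads would correspond to 0.0110 to 0.0205 FPKM. It reached 0.348, 0.554 and 0.412 FPKM in line 1 control and 0.231, 0.160 and 0.211 in line 2 control, below the filter. LotjaGi3g1v0397800, the last of the run, was at 0 in all 18 libraries. The largest run, 8 members on chromosome 6, begins with LotjaGi6g1v0315000. Within it, LotjaGi6g1v0315600 had group means between 12.4 and 18 FPKM and was not called, and LotjaGi6g1v0315700 was at 0 throughout.

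Most genes next to these members that are not GDSL genes were not called. Within 100 kb of LotjaGi3g1v0397600, of LotjaGi6g1v0315000 and of LotjaGi1g1v0298900, 8, 13 and 9 other rows were tested, and none was called between line and WT without salt. Near LotjaGi3g1v0397700, 8 were tested, none was called in line 1 and 1 was higher in line 2. Its window overlaps that of LotjaGi3g1v0397600, so these 2 counts share rows. Over all tested rows 11.7% were called in line 1 and 12.6% in line 2, so few or no calls among so few rows say little. What the lines carry at these positions was not tested.

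**Figure D3:**
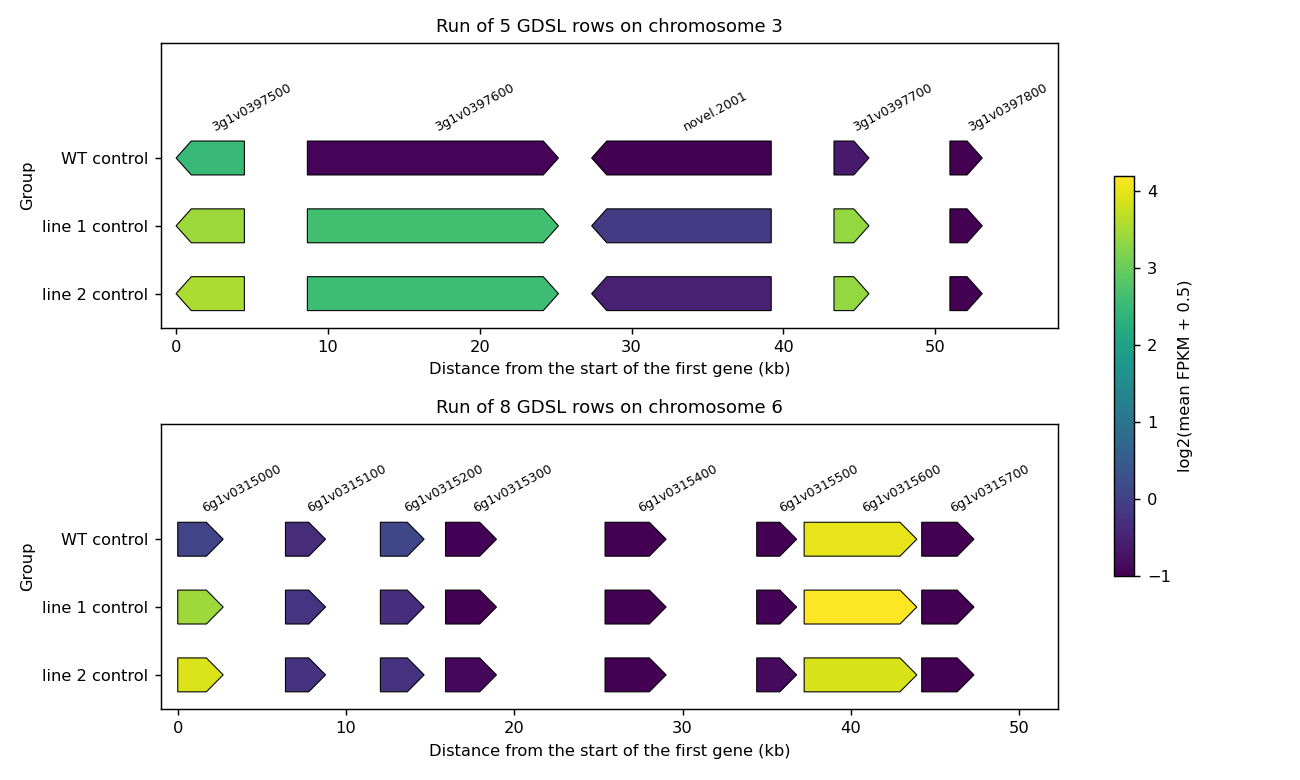
Members of the runs of 5 on chromosome 3 and of 8 on chromosome 6, placed by distance along the chromosome in kilobases and coloured by log2(FPKM + 0.5) in the 3 control groups. LotjaGi3g1v0397600, LotjaGi3g1v0397700 and LotjaGi6g1v0315000 are dark (low) in WT and bright (high) in both lines, whereas LotjaGi6g1v0315600 keeps a similar shade in all 3.

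Over the whole family without salt, 10 of the 67 tested members were higher and none lower in line 1 than in WT. This is 14.9% of the members tested, beside 11.7% of all rows (7.37% higher, 4.31% lower). In line 2, 8 were higher and 4 lower, 17.9% beside 12.6% of all rows (7.22% higher, 5.35% lower). Median differences over the tested members were 0.08 in line 1 and 0.01 in line 2, beside 0.00 and -0.01 over all rows. The splits depend on the scaling, since quantile normalization gave 9 higher and 3 lower in line 1 and 8 and 9 in line 2, and scaling to the total FPKM gave 6 and 0 in line 1 and 8 and 1 in line 2. These scalings called 12.9% and 10.2% of all rows in line 1, and 13.6% and 11.5% in line 2. In the lower library set alone fewer members were called, none of them lower, and a smaller share of all rows was called too. Array weights raised the member counts to 31 and 30, and the share of all rows called to 39.1% in line 1 and 29.9% in line 2.

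Apart from the genes above, the differences without salt were small. LotjaGi1g1v0027300, matched to At5g55050, was at 3.95, 4.23 and 4.14 FPKM in WT control and at 5.60, 5.87 and 5.96 in line 1 control. In line 2 control it was at 6.24, 6.71 and 6.03 FPKM, so neither line overlapped WT. The differences were 0.45 (SE 0.14, adjusted p = 0.0418) and 0.57 (adjusted p = 0.0114) by limma, of which the first was lost when any of its 6 libraries was left out and the second without line 2 control replicate 2 (adjusted p = 0.0537). EXL1-named LotjaGi5g1v0004300 differed by 0.62 (adjusted p = 0.0384) and 0.64 (adjusted p = 0.0312) by limma, and the calls were lost when any of several libraries was left out, WT control replicates 2 and 3 among them. In line 2, LotjaGi3g1v0219600, another match to At5g33370, was lower than in WT by limma (log2 difference -0.59, adjusted p = 0.0105), at 13.5 ± 1.28 against 20.5 ± 1.93 FPKM (mean ± SD, n = 3 each), a call lost without line 2 control replicate 1 (adjusted p = 0.0518). None of the calls of these 3 genes held in the lower library set alone (adjusted p from 0.0989 to 0.453 by limma). Between line 2 and line 1 control plants, limma called 0 of the 67 tested members. For that comparison, 0.147% of all rows were called (0.0636% higher, 0.0832% lower). At an unadjusted p under 0.05 there were 8 members, beside 749 of the 20433 tested rows. Limma voom called 0 members (0.093% of all rows) and array weights called 5 (1.96% of all rows).

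**Figure D4:**
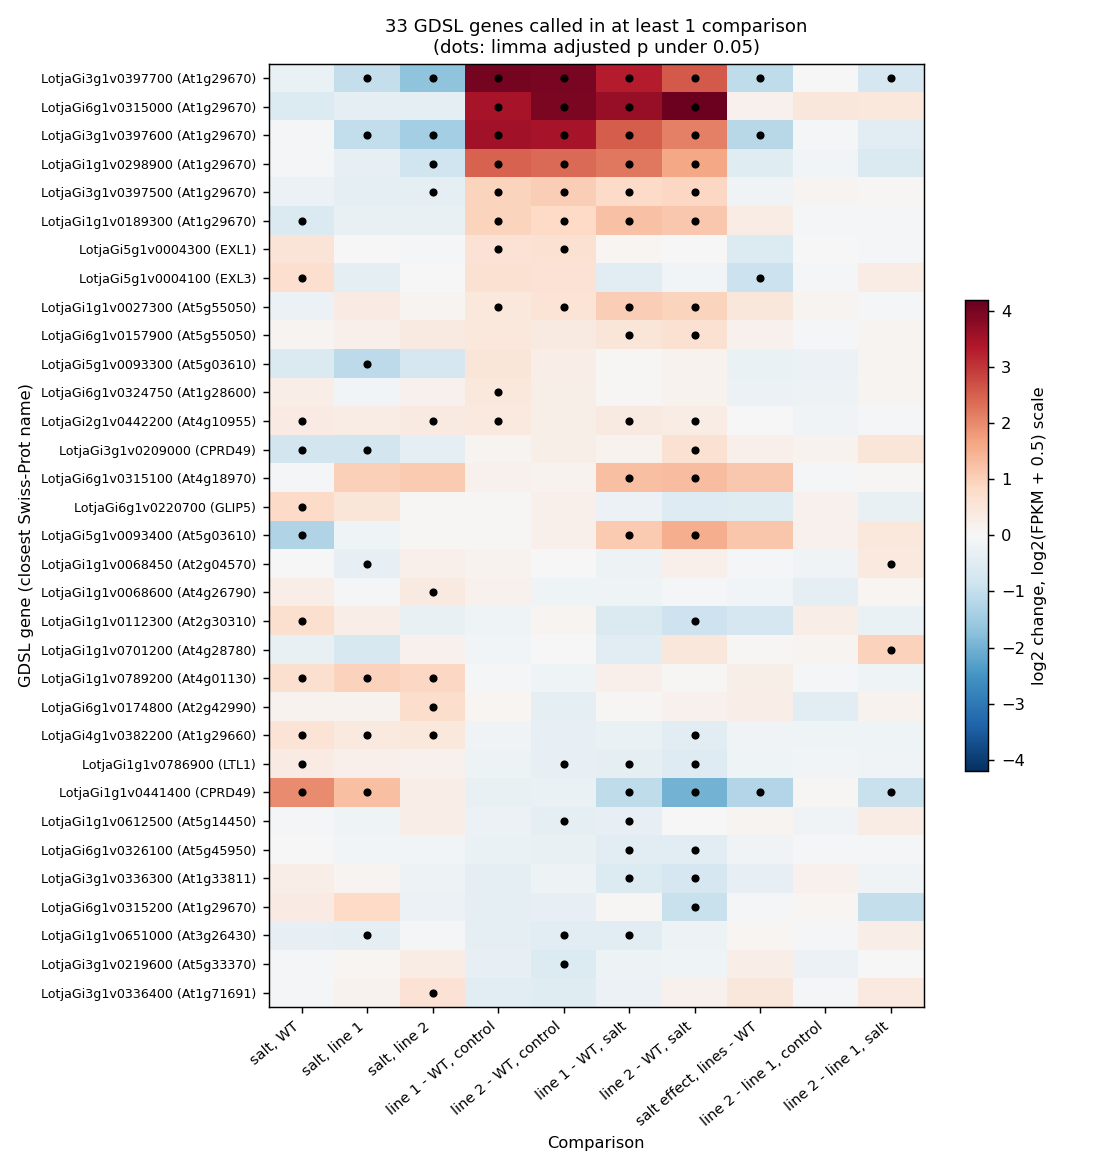
Fitted log2(FPKM + 0.5) differences in each of the 10 comparisons for the tested GDSL genes called in at least 1 of them (33 of 67), with marks on called cells. The At1g29670-named genes form the strongest block of rises in the 4 comparisons of a line with WT, and LotjaGi1g1v0441400 has the strongest rise with salt in WT.

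Salt raised 1 abundant member strongly in WT. LotjaGi1g1v0441400 (chromosome 1, 93797503 to 93800819, minus strand) is matched to CPRD49. The 3 WT control libraries had 106, 101 and 116 FPKM and the 3 WT salt libraries 471, 400 and 423. In line 1 it stood at 98.1, 82.6 and 79.0 FPKM in control and at 245, 184 and 196 in salt. In line 2 it stood at 98.8, 92.4 and 77.1 FPKM in control and at 111, 105 and 106 in salt. The 3 WT salt libraries were the highest of the 18, the 3 line 1 salt libraries came next, and the line 2 salt libraries lay within the range of the WT controls. In bulk tissue, a change in the number of cells of a type cannot be told apart from a change in the RNA per cell.

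The rise with salt was 1.99 (SE 0.12, adjusted p = 5.85e-09) in WT and 1.26 (SE 0.12, adjusted p = 5.57e-06) in line 1 by limma. In line 2 it was 0.27 (SE 0.12, adjusted p = 0.172), which did not pass. The mean salt effect of the lines was lower than that of WT by limma (difference -1.23, SE 0.15, adjusted p = 3.37e-05). Under salt the gene was lower than in WT by limma, with a difference of -1.05 (adjusted p = 7.45e-06) in line 1 and -1.999 (adjusted p = 5.33e-09) in line 2. Line 2 was also lower than line 1 under salt (-0.94, SE 0.12, adjusted p = 3.78e-04 by limma), though not called in the lower set alone (-0.85, adjusted p = 0.0543). Its other calls held in every alternative tried. Without salt, neither line passed against WT (adjusted p = 0.1005 and 0.155 by limma). Within 100 kb of it, 7 other rows were tested and 1 was called with salt in WT, lower, beside 16.3% of all rows called.

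This gene accounted for most of the increase of the family's total with salt in WT, but not in line 2. In line 1 the mean total hardly changed with salt, while the mean sum without this gene was lower. Summed FPKM over all members was 1364 ± 48.1 in WT control and 1788 ± 73.8 in WT salt (mean ± SD, n = 3 each). Without LotjaGi1g1v0441400 the sums were 1256 ± 51.6 and 1356 ± 76.0. It gave 7.91% of the WT control sum and 24.1% of the WT salt sum, but 14.1% in line 1 salt and 7.22% in line 2 salt. In line 1 the total was 1477 ± 34.7 in control and 1483 ± 121.5 with salt, and 1390 and 1274 without this gene. In line 2 the total was 1315 ± 95.9 in control and 1486 ± 76.7 with salt, and 1225 and 1379 without it.

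None of the other 3 genes matched to CPRD49 was called higher with salt in any genotype. LotjaGi3g1v0209000 (chromosome 3, 30857480 to 30860520, plus strand) was at 22.0, 17.9 and 15.4 FPKM in WT control and at 9.19, 11.7 and 10.5 in WT salt, with no overlap. It fell by 0.78 on the log2 scale (SE 0.19, adjusted p = 0.0077 by limma), and was not called in the lower library set alone (adjusted p = 0.181). LotjaGi1g1v0441000, in the same part of chromosome 1 as LotjaGi1g1v0441400, averaged 8 ± 1.01 FPKM in WT without salt and 10.4 ± 0.797 with it (mean ± SD, n = 3 each) and was not called. LotjaGi6g1v0213000 had group means between 2.59 and 3.49 FPKM and was not called.

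In all, 8 of the 67 tested members rose and 3 fell with salt in WT, 16.4% beside 16.3% of all rows (6.35% up, 9.91% down). That share is close to the background. The median change was 0.08, beside 0.01 over all rows. Scaling to the total FPKM gave 5 rises and 4 falls, beside 15% of all rows called. That share was 12.8% without WT control replicate 3, 13.3% without WT salt replicate 2 and 21.4% among rows averaging at least 5 FPKM. It was also smaller in the lower library set alone than in the main fit. The count of called members was 5 without WT control replicate 3, 6 without WT salt replicate 2 and 7 among rows averaging at least 5 FPKM.

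Among the rises was LotjaGi4g1v0382200, matched to At1g29660, at 43.2, 41.0 and 40.8 FPKM in WT control and 63.1, 56.3 and 66.5 in WT salt. The groups did not overlap and the change was 0.56 (SE 0.11, adjusted p = 0.0011 by limma). LTL1-named LotjaGi1g1v0786900 (chromosome 1, 135965557 to 135970881, plus strand), in the same run as the CUS2-like gene, was at 53.4, 46.6 and 48.8 FPKM in control and at 65.2, 63.1 and 62.2 in salt. It rose by 0.35 (SE 0.10, adjusted p = 0.0160 by limma) without overlap, a call lost without WT control replicate 2 or 3 or WT salt replicate 1 (adjusted p = 0.0702, 0.0555 and 0.0538). Low members also passed in WT. LotjaGi6g1v0220700, matched to GDSL esterase/lipase 5 of the GLIP group, was at 0.712 ± 0.185 FPKM in control and 1.63 ± 0.406 in salt (mean ± SD, n = 3 each; change 0.81, SE 0.22, adjusted p = 0.0164 by limma). That call was lost without WT control replicate 3 or WT salt replicate 3. In the lower library set alone all 3 missed the threshold (adjusted p = 0.05002, 0.185 and 0.111 by limma).

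LotjaGi1g1v0789200, matched to At4g01130, rose with salt in WT and in each line. It was at 9.32, 9.01 and 9.21 FPKM in WT control and at 15, 16.9 and 12.7 in WT salt. Line 1 went from 10.7, 7.25 and 8.29 FPKM in control to 17.1, 14.9 and 20.5 in salt, and line 2 from 8.26, 9.09 and 7.13 to 15.3, 15.6 and 14.9. Control and salt libraries did not overlap in any genotype. The changes were 0.66 (SE 0.14, adjusted p = 0.0033), 0.97 (adjusted p = 3.33e-04) and 0.87 (adjusted p = 0.0019) by limma. In the lower library set alone, those of the lines were 0.90 and 0.77 and missed the threshold (adjusted p = 0.109 and 0.0524 by limma).

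**Figure D5:**
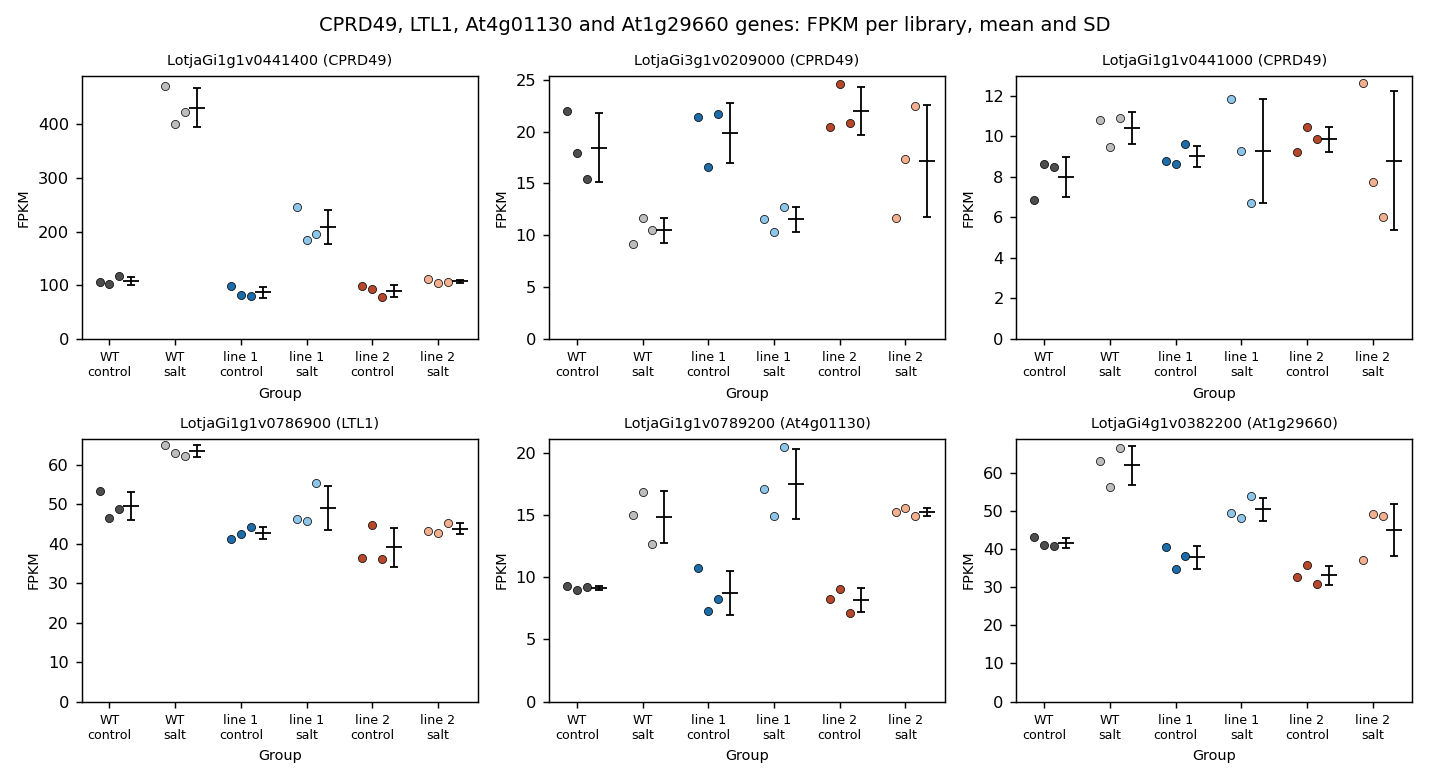
FPKM of 3 genes matched to CPRD49 and of the LTL1, At4g01130 and At1g29660 matches, 1 point per library, with the mean and SD of each group beside it. LotjaGi1g1v0441400 lies between 400 and 471 FPKM in WT salt and at or below 111 in line 2 salt, whereas LotjaGi1g1v0789200 is higher with salt in all 3 genotypes.

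In line 1, 3 of the 67 tested members rose and 6 fell with salt, 13.4% beside 8.61% of all rows (4.19% up, 4.42% down). In line 2, 6 rose and 4 fell, 14.9% beside 8.66% of all rows (4.24% up, 4.42% down). Median changes were -0.08 and 0.09, beside 0.01 over all rows in each line. These counts moved easily, and so did the shares of all rows called. Scaling to the total FPKM gave 1 rise and 4 falls in line 2 (7.22% of all rows called), and quantile normalization 4 and 3 (7.33%). Leaving out 1 library gave between 4 and 7 calls in line 1 and between 3 and 7 in line 2, and the lower library set alone gave 1 in each. Array weights gave 30 in line 1, beside 29.9% of all rows, and a fit of the compared groups alone gave 5, beside 3.67%. Without 1 library, 5.25% to 7.56% of all rows were called in line 1 and 3.41% to 6.84% in line 2. The lower library set alone also called a smaller share of all rows in both lines.

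The falls included genes named after At1g29670 that were near 0 in WT. LotjaGi3g1v0397700 fell with salt by 1.00 (SE 0.15, adjusted p = 4.12e-04) in line 1 and by 1.69 (adjusted p = 1.52e-05) in line 2 by limma. LotjaGi3g1v0397600 fell by 1.04 (SE 0.25, adjusted p = 0.0158) in line 1 and by 1.41 (adjusted p = 0.0032) in line 2 by limma. The line 1 call of LotjaGi3g1v0397600 was lost without line 1 control replicate 2 (adjusted p = 0.0965) and without line 1 salt replicate 3 (adjusted p = 0.0641). In the lower library set alone the line 1 fall of LotjaGi3g1v0397700 and both falls of LotjaGi3g1v0397600 were not called (adjusted p = 0.231, 0.391 and 0.0991 by limma). These changes use the same line control libraries as the differences from WT given above.

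Under salt, 11 members were higher and 6 lower in line 1 than in WT, 25.4% beside 16% of all rows (11.2% higher, 4.77% lower). In line 2, 12 were higher and 7 lower, 28.4% beside 25.1% (14.9% higher, 10.2% lower). The median differences were -0.07 and -0.02, beside 0.01 and 0.00 over all rows. Quantile normalization turned the line 1 split to 7 higher and 10 lower, and scaling to the total FPKM gave 8 and 7. In line 1, these scalings called 17.7% and 14% of all rows. A fit of the compared groups alone called 9.81% of all rows and array weights 30.1%, while the lower library set alone called a smaller share than the main fit. Among members, the fit of the compared groups alone gave 10 calls in line 1 and array weights 29. The rises included 6 of the 8 tested At1g29670-named genes in line 1 and 6 of 8 in line 2, where 1 further row of that name was lower, LotjaGi6g1v0315200 at 0.236 ± 0.233 against 0.945 ± 0.637 FPKM (mean ± SD, n = 3 each). That low-level call was lost without WT salt replicate 2 or 3 and without line 2 salt replicate 1 or 3. LotjaGi6g1v0315200 reached 1 FPKM only in salt libraries of WT and line 1, so its differing is also partly set by the filter. The At1g29670 group was singled out after its values had been seen. Its risen genes that were below 1 FPKM in every WT library passed the filter only through the lines.

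LotjaGi1g1v0027300 was at 3.38, 3.25 and 3.60 FPKM in WT salt, at 8.38, 7.48 and 6.51 in line 1 salt and at 7.76, 8.23 and 5.15 in line 2 salt. The groups did not overlap, and the differences from WT were 1.02 (SE 0.14, adjusted p = 5.13e-05) and 0.92 (adjusted p = 1.06e-04) by limma. LTL1-named LotjaGi1g1v0786900 was at 46.2, 45.7 and 55.6 FPKM in line 1 salt and at 43.4, 42.7 and 45.3 in line 2 salt, below all 3 WT salt libraries. The difference was -0.37 (SE 0.10, adjusted p = 0.0136) in line 1 and -0.53 (adjusted p = 6.50e-04) in line 2 by limma. LotjaGi4g1v0382200 was at 37.2, 49.2 and 48.6 FPKM in line 2 salt, also below WT salt (difference -0.47, SE 0.11, adjusted p = 0.0044 by limma). In the lower library set alone, the line 1 differences of LotjaGi1g1v0027300 and the LTL1-named gene were not called (adjusted p = 0.0717 and 0.504 by limma). That of the LTL1-named gene was also lost without line 1 salt replicate 1 or 2.

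LotjaGi6g1v0315100, matched to At4g18970 and next to LotjaGi6g1v0315000, was at 0.356, 1.14 and 3.27 FPKM in line 1 salt and at 1.36, 1.25 and 1.29 in line 2 salt. WT salt libraries had 0.0659, 0.346 and 0.321 FPKM. Over all WT and line control libraries it reached at most 0.471 FPKM. It thus passed the expression filter only through the salt libraries of the lines, so its differing is partly set by the filter. The difference in line 1 was 1.25 (SE 0.36, adjusted p = 0.0248 by limma) and was lost without line 1 salt replicate 3, the highest library (0.69, adjusted p = 0.106), without line 1 salt replicate 2 (adjusted p = 0.0572) or WT salt replicate 1 (adjusted p = 0.0881), and under quantile normalization (adjusted p = 0.194) and limma voom (adjusted p = 0.0723). In line 2 it was 1.30 (adjusted p = 0.0137 by limma) and was lost without WT salt replicate 1 (adjusted p = 0.0576) and under quantile normalization (adjusted p = 0.0893).

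The mean salt effect of the lines differed from that of WT in 4 of the 67 tested members, all in the lower direction, 5.97% beside 8.16% of all rows (5.89% higher, 2.27% lower). The median difference in salt effect was -0.11, beside 0.00 over all rows. LotjaGi1g1v0441400 was the one called in every alternative. The other 3 were LotjaGi3g1v0397700, LotjaGi3g1v0397600 and LotjaGi5g1v0004100, an EXL3-named gene. The first 2 are near 0 in WT but had fewer reads there with salt too. LotjaGi3g1v0397700 had 47 reads over the 3 WT control libraries (9 to 25 each) and 8 over the 3 WT salt libraries (0 to 8 each), without overlap in FPKM. LotjaGi3g1v0397600 had 13 and 1. Neither change passed in WT (-0.28 and -0.05, adjusted p = 0.263 and 0.940 by limma). The log2(FPKM + 0.5) scale compresses such changes in WT. Their calls and that of the EXL3-named gene were lost in the lower library set alone (adjusted p = 0.116, 0.238 and 0.0985 by limma). The call of LotjaGi3g1v0397600 was also lost without WT control replicate 1 or 3 or WT salt replicate 2 or 3, and that of LotjaGi5g1v0004100 without WT control replicate 1 or 2, WT salt replicate 2 or 3, line 1 control replicate 1, line 2 control replicate 1 or 2, or line 2 salt replicate 2. With a pseudocount of 0.1 the difference for LotjaGi3g1v0397700 was -0.49 (adjusted p = 0.360 by limma), and limma voom on the recovered reads gave the opposite sign without a call (2.37, adjusted p = 0.477).

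Under salt, line 2 differed from line 1 in 4 members, 2 higher and 2 lower, 5.97% beside 1.74% of all rows (0.92% higher, 0.817% lower). LotjaGi1g1v0441400 and LotjaGi3g1v0397700 (difference -0.70, SE 0.15, adjusted p = 0.0235 by limma) were lower in line 2. LotjaGi1g1v0068450, at 235 ± 6.86 against 175 ± 16.5 FPKM (mean ± SD, n = 3 each), was higher by 0.43 (SE 0.09, adjusted p = 0.0223 by limma). The fourth, LotjaGi1g1v0701200, was higher by 0.96 (adjusted p = 0.0459 by limma). Its call was lost in 11 of 17 alternatives, among them leaving out line 1 salt replicate 2 or 3 or any line 2 salt library. That of LotjaGi3g1v0397700 was lost in 9 of 17, among them leaving out line 1 salt replicate 2 or 3 or line 2 salt replicate 2 or 3. That of LotjaGi1g1v0068450 was lost without line 1 salt replicate 1 or 2 or line 2 salt replicate 1 or 3. The count was 1 without line 1 salt replicate 2 or without line 2 salt replicate 3, 2 without line 1 salt replicate 3 or line 2 salt replicate 2, and 0 in the lower library set alone.

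Genes picked by names tied to surface and barrier lipids were counted beside the family, and where each of them acts was not tested. A list of 103 rows for cutin, wax and suberin formation (acyltransferases, fatty acid hydroxylases, elongases, reductases, transporters and lipid transfer proteins), without GDSL genes, had 71 tested rows. With salt in WT, 10 rose and 6 fell (22.5% beside 16.3% of all rows), with a median change of 0.13. In line 1, 2 rose and 3 fell with salt (7.04% beside 8.61%), and in line 2, 5 rose and 1 fell (8.45% beside 8.66%). Without salt, 4 were higher and 2 lower in line 1 than in WT (8.45% beside 11.7%), and 4 and 4 in line 2 (11.3% beside 12.6%). Under salt the counts were 6 higher and 11 lower in line 1 (23.9% beside 16%) and 8 and 16 in line 2 (33.8% beside 25.1%). The mean salt effect differed in 3 upward and 1 downward (5.63% beside 8.16%). The rows described next were picked for the smallest adjusted p of the list, for salt in WT and for the difference in salt effect. Both fell with salt in WT, where 10 rows of the list rose and 6 fell, so they do not stand for the list. LotjaGi4g1v0210400, matched to a lipid transfer protein with a GPI anchor (number 7), averaged 54.3 ± 5.78 FPKM in WT without salt and 12.4 ± 1.24 with it (mean ± SD, n = 3 each; change -2.08, SE 0.16, adjusted p = 9.81e-08 by limma). Without and with salt it averaged 87.2 and 72.1 FPKM for line 1 and 84.4 and 63.2 for line 2, and its salt effect differed from that of WT by 1.75 (SE 0.20, adjusted p = 2.43e-05 by limma). LotjaGi3g1v0510500, matched to 3-ketoacyl-CoA synthase 11, an elongase of very long chain fatty acids, averaged 36.3 ± 10.1 FPKM in WT without salt and 5.51 ± 1.38 with it (mean ± SD, n = 3 each). Its group means in the lines lay between 13.3 and 15.9 FPKM, and its salt effect differed from that of WT by 2.73 (SE 0.28, adjusted p = 9.50e-06 by limma).

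About as many tested members were never called as were called in some comparison, 34 and 33. The 33 are 49.3% of the tested members, beside 41.1% of all tested rows called in at least 1 of the 10 comparisons. In the uncalled members the ratio of the highest to the lowest group mean had a median of 1.47, and it was under 2 in 29 of the 34. They included the APG-named LotjaGi3g1v0372800, with group means between 26.2 and 31.1 FPKM. The 43 members below the filter were low throughout. Of these, 38 never reached 1 FPKM and 5 did so in 1 or 2 libraries, the highest single value being 2.21 FPKM, for LotjaGi6g1v0315500 in line 2 salt replicate 1. Both rows named At4g10955 belong by name only: they do not carry the GDSL domain.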

How the data were processed

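FPKM, for 18 libraries in 1 table, is the unit the authors deposited. Per the submitters' processing notes, reads were processed with fastp, featureCounts 1.5.0-p3 and DESeq2 1.20.0. Nothing on aligner, genome build or strand setting is given in the sources used here. Multiplying FPKM by gene length recovered whole reads for 100% of values, within 0.05 of a read, and only libraries named in the labels were used. None of the row identifiers, 0 of 110 members included, matched the RefSeq gene table, so names come from the deposited descriptions and no sequence is shown.

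Values were taken as log2(FPKM + 0.5) and fitted with limma 3.58.1 (R 4.3.3, eBayes with trend), 6 group means and 12 residual degrees of freedom. Rows with at least 1 FPKM in at least 3 libraries were tested (20433 of 33994), and p-values were adjusted within each of 10 comparisons. Comparisons share libraries: those with WT share the WT groups, and salt changes share each genotype's controls. The fitting code was tested on simulated data for salt in WT.

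Members and lists were chosen with earlier results of these data known. Members named in the text were drawn from 4 kinds, and not every member of these kinds is described. They were those called with up to the 5 smallest adjusted p per comparison and direction, the 6 highest, those named for a gene rather than a locus, and those in runs of at least 3. Members left out include LotjaGi6g1v0326100 and LotjaGi1g1v0651000, both called lower in line 1 than in WT under salt. Alternatives covered pseudocounts, filters, scalings, limma voom, array weights, a replicate block, the library set and leaving out each library. The fit of the lower library set alone was chosen after seeing the data.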

Additional observations from a re-analysis of the deposited data

Results flagged for a closer look

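In 4 members the mean salt effect of the 2 lines differed from that of WT by a test of the difference itself (limma, adjusted over all tested rows). For LotjaGi1g1v0441400, matched to CPRD49, the difference was -1.23 (adjusted p = 3.37e-05), with salt changes of 1.99 for WT, 1.26 for line 1 and 0.27 for line 2. For LotjaGi3g1v0397700 it was -1.07 (adjusted p = 0.0011) and for LotjaGi3g1v0397600 -1.18 (adjusted p = 0.0254), both genes with at most 25 reads in any WT library. Their reads over the WT libraries went from 47 in control to 8 in salt and from 13 to 1, changes that the log2(FPKM + 0.5) scale compresses. Limma voom on the recovered reads gave both the opposite sign without a call (2.37 and 0.66). Their calls were not kept in 3 and 8 of 29 alternatives. For LotjaGi5g1v0004100, matched to EXL3, the difference was -0.90 (SE 0.25, adjusted p = 0.0330 by limma), a call lost in 11 of 29 alternatives. WT had 0.776 ± 0.221 FPKM without and 1.57 ± 0.372 FPKM with salt, against 1.46 ± 0.233 and 1.00 ± 0.186 in line 1 and 1.42 ± 0.298 and 1.40 ± 0.394 in line 2 (mean ± SD, n = 3 each). The summed FPKM of the 6 pollen and anther rows ranged in WT from 0.560 to 1.18 without salt and from 1.02 to 1.48 with it. The ranges were 0.975 to 1.65 and 1.10 to 1.497 for line 1 and 0.816 to 1.98 and 1.53 to 2.65 for line 2, and their part in this result was not tested.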

How the results depend on the processing

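Of 192 alternative counts of called members over the 10 comparisons, 144 were within 1.5 times the reported count, and the cause of the others was not tested. The share of all rows called moved as well. Array weights raised it in each comparison, and the lower library set alone lowered it in each. Rows averaging at least 5 FPKM, which are fewer, gave 7 calls for salt in WT, 5 for salt in line 2, 12 for line 2 against WT in salt, 1 for the difference in salt effect and 2 for line 2 against line 1 in salt. Fitting only the compared groups, with fewer libraries, gave 5 for salt in line 1, 10 for line 1 against WT in salt and 1 for line 2 against line 1 in salt. Array weights gave 30 for salt in line 1, 31 and 30 for line 1 and line 2 against WT without salt, 29 for line 1 against WT in salt, 7 for the difference in salt effect and 5 for line 2 against line 1 without salt. No filter gave 6 and total scaling 5 for salt in line 2, and total scaling 6 for line 1 against WT without salt. A pseudocount of 0.1 and limma voom each gave 2 for the difference in salt effect and 2 for line 2 against line 1 in salt. The lower library set alone gave 4, 1 and 1 for salt in WT, line 1 and line 2, 4 and 6 for line 1 and line 2 against WT without salt, 9 for line 1 against WT in salt, 1 for the difference in salt effect and 0 for line 2 against line 1 in salt.

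Leaving out 1 library at a time gave 5 to 10 calls for salt in WT, 4 to 7 in line 1 and 3 to 7 in line 2. It gave 6 to 10 and 7 to 11 for line 1 and line 2 against WT without salt, 12 to 15 and 17 to 20 with salt, 2 to 5 for the difference in salt effect, and 0 to 0 and 1 to 3 for line 2 against line 1 without and with salt. The lowest counts for line 1 against WT without salt came without WT control replicate 3 or line 1 control replicate 3, for line 2 without line 2 control replicate 1, and for the difference in salt effect without WT salt replicate 2 or 3. Of 91 named calls, 35 held in every alternative, and of 1653 alternative values 322 lost the call. Both reversed values came from limma voom for the difference in salt effect, 2.37 for LotjaGi3g1v0397700 and 0.66 for LotjaGi3g1v0397600.

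Same-numbered libraries of different groups did not deviate together: 14 of 45 pairs correlated above 0.1, with r from -0.42 to 0.48, and 7 of 18 libraries correlated best with their own number. The values therefore gave no sign that the numbers pair the samples. Weak correlations cannot exclude a pairing, and the labels do not state one. With replicate number as a block, the counts were 10, 8 and 8 for salt in WT, line 1 and line 2, 11 and 12 for line 1 and line 2 against WT without salt, 17 and 18 with salt, 3 for the difference in salt effect, and 0 and 3 for line 2 against line 1 without and with salt. Under the block 8 of the 91 named calls missed the threshold, among them the difference in salt effect of LotjaGi5g1v0004100 (adjusted p = 0.0506), LotjaGi5g1v0004300 in line 1 without salt (adjusted p = 0.0570) and LotjaGi1g1v0701200 between the lines in salt (adjusted p = 0.0724). In genes with few or no reads in WT, the size of a fold change is limited by counting.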
